A study of Mus musculus with 12 samples.

Results

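The genes described here are nuclear genes for subunits of the 5 oxidative phosphorylation complexes, measured in 12 mouse mammary tumours. They were chosen by symbol, as Nduf, Sdh, Uqcr, Cox and Atp5 subunit genes of the count table with pseudogenes marked by a suffix left out. This gave 90 of 56860 genes. Subunits whose symbols the rule does not match, such as Ndufab1 of complex I and Cyc1 of complex III, are not among them. Of the 90, 77 are widely expressed subunits and 8 are isoforms restricted to particular tissues or conditions (among them the muscle and brown fat isoforms Cox7a1 and Cox8b). The other 5 are named after a parent subunit and are called copy genes here, without a comparison of their sequences. Complex I had 40 members, complex II 4, complex III 8, complex IV 21 and complex V 17. Matching the symbols used no measured value, although the set was chosen with earlier results of these data known.

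Total RNA came from primary tumours of MMTV-PyMT mice at 4.5 months, in which the polyoma middle T oncogene is expressed in mammary epithelium. The WT group carried MMTV-Cre beside the oncogene in the design text, while its strain label gives MMTV-PyMT alone. The C3_KO group was MMTV-Cre;C3Tdt:MMTV-PyMT and the S1pr1_KO group was MMTV-Cre;S1pr1fl/fl; MMTV-PyMT, so that Cre and the oncogene were shared by all groups of the design text. Each group had 4 libraries, and the comparisons ask what losing complement C3, or the receptor S1pr1 for sphingosine-1-phosphate, does to the tumours. Cre is driven here by the MMTV promoter, which is active mainly in mammary epithelium, and stromal and immune cells can thus retain both genes. Whole tumours were sequenced, and fewer cells of a type and less RNA per cell cannot be told apart.

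Total counts ran from 230.4 to 484.0 M a library, with M for 1e6 counts. Levels below are CPM, counts per 1e6 counts of a library after TMM scaling, unless FPKM, which divides by gene length, is named. C3, the targeted gene of C3_KO, was at 59.7 ± 17.6 CPM in C3_KO and 101 ± 58.2 in WT (SD, n = 4 each; adjusted p = 0.765 by edgeR's quasi-likelihood test). S1pr1 was at 4.64 ± 2.35 CPM in S1pr1_KO and 5.21 ± 2.63 in WT (SD, n = 4 each; edgeR adjusted p = 0.874), so neither targeted gene differed from WT beyond the spread of the libraries. All 8 luminal epithelial markers were detected in every library, at a summed 3450 to 7460 CPM in WT, 3210 to 6380 in C3_KO and 2580 to 5950 in S1pr1_KO. C3_KO 3 was rich in milk protein transcripts (87600 CPM summed) and S1pr1_KO 1 and S1pr1_KO 4 in salivary transcripts (152000 and 4710 CPM summed).

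Complexes I to IV form the respiratory chain of the inner mitochondrial membrane, which passes electrons to oxygen and pumps protons. Complex II feeds electrons in from succinate without pumping, and complex V, the ATP synthase, uses the proton gradient to make ATP. Most subunits are nuclear genes whose proteins are imported, while a few central subunits of complexes I, III, IV and V are encoded by mitochondrial DNA. The nuclear genes are known as targets of the regulators NRF1, GABP (an ETS factor), YY1 and the ERR receptors.

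Start-site sequence was examined because these genes are known for shared promoter elements. A RefSeq window of 300 bases (250 before and 50 after the start, GRCm38.p6, an older build than that of the counts) was found for 69 members, 65 of them widely expressed. The NRF1 string, a 10-letter run that is its own reverse complement and stands in capitals in Atp5g2, Atp5k and Ndufa11 below, occurred in 5 of the 65 windows (7.69%), beside 1.07% of the 27025 genes with a window and 2.2% of the 10629 expressed genes among them. The ETS string CCGGAAG, read on both strands, occurred in 17 (26.2%), beside 9.93% of all and 19.4% of expressed genes. The YY1 string AAGATGGC, on both strands, occurred in 10 (15.4%), beside 3.19% and 5.14%, and no occurrence of these 3 strings overlapped another in a member window. The strings GGGCGG (SP1; 40%, beside 67.7% of expressed genes) and CCAAT (41.5%, beside 42.9%) were not more frequent in the members than in expressed genes. None of the 4 restricted isoforms with a window (among them Cox7a1 and Cox8b) held the NRF1, ETS or YY1 string. A match is a run of letters only and shows no binding.

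The 120 bases before the start are printed 5′ to 3′ on the gene's strand, with the NRF1 or ETS string in capitals and everything else in lower case. Atp5g2 and Atp5k, of the membrane part of ATP synthase, and Ndufa11, of the membrane arm of complex I, are shown for the NRF1 string. Atp5h, which had the smallest p of the members in both comparisons with WT, and Cox6b1, one of the most abundant members, are shown for the ETS string read on the opposite strand. Cox7a1 and Cox8b are shown as isoforms with none of the 3 strings.
Atp5g2 (chr15:102671048-102671167, minus strand): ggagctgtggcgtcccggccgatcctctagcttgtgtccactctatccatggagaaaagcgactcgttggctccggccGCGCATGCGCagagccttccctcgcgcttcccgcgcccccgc
Atp5k (chr5:108434400-108434519, minus strand): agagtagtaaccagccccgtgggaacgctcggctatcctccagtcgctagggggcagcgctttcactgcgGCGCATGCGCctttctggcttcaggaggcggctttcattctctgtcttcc
Ndufa11 (chr17:56717642-56717761, plus strand): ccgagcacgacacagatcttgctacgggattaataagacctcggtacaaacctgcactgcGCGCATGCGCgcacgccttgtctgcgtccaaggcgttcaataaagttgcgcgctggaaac
Atp5h (chr11:115419920-115420039, minus strand): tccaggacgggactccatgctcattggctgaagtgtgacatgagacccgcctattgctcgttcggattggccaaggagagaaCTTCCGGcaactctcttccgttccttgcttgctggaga
Cox6b1 (chr7:30626115-30626234, minus strand): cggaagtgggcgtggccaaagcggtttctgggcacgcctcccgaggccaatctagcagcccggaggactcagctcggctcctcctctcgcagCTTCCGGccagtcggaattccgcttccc
Cox7a1 (chr7:30184051-30184170, plus strand): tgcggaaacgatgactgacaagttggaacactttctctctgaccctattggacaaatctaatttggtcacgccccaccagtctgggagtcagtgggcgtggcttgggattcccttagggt
Cox8b (chr7:140900447-140900566, minus strand): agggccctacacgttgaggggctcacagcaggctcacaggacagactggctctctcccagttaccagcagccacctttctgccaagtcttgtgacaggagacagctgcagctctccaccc

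The widely expressed subunits were among the most abundant transcripts of these tumours. Of the 77, 72 lay above the 90th percentile of mean FPKM of the genes tested, and all 90 members together took 0.67 to 1.15% of the counts of a library. Median FPKM of the widely expressed subunits was 40.4 in complex I, 38.6 in complex II, 60.8 in complex III, 88.6 in complex IV and 80.7 in complex V. The most abundant members per length were the complex IV subunits Cox6a1 (mean FPKM 296), Cox6b1 (291), Cox4i1 (261) and Cox8a (234), and the ATP synthase alpha chain Atp5a1 (184). Within complex I, FPKM ran from 6.76 for Ndufs1, its largest iron-sulfur core subunit, to 120 for the accessory subunit Ndufb9. The complex II subunits lay closest together, from 32.4 for the membrane anchor Sdhc to 53.9 for the other anchor Sdhd. The 5 members of lowest FPKM were Cox6b2, Cox7b2 and Cox8c, isoforms known from testis, and the copies Ndufa11b and Ndufb11b, with a mean FPKM of 0.873 for Cox6b2 and 0.0141 or less for the rest.

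Between genotypes, the nuclear subunits were lower in most of the knockout libraries than in WT, and no single member passed edgeR's test in any comparison. In S1pr1_KO against WT, 83 of the 86 members tested had a log2 fold change below 0, beside 48.3% of all 30660 genes tested. Their median was -0.66 (0.632-fold), while that of all genes was 0.03. In C3_KO against WT, 82 of 86 were below 0, beside 45.8% of all genes, with a median of -0.45 (0.732-fold) and 0.05 for all genes. Both comparisons use the same 4 WT libraries. Cox7b2, Cox8c, Ndufa11b and Ndufb11b had too few counts to be tested.

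At an adjusted p under 0.05, edgeR's quasi-likelihood test called 0 of 86 members in each of the 3 comparisons, beside 0% of all genes in each. In S1pr1_KO against WT, 32 members were lower at an unadjusted p under 0.05, beside 7.78% of all genes lower, and 0 were higher, beside 7.69%. The smallest adjusted p of a member was 0.215. The libraries of 16 members did not overlap between S1pr1_KO and WT, all with S1pr1_KO lower, beside 4.8% of all genes. In C3_KO against WT, 4 members were lower at an unadjusted p under 0.05, beside 2.61% of all genes lower, and 0 were higher, beside 3.62%. The libraries of 2 members did not overlap between groups, beside 1.72%. The smallest adjusted p there was 0.765.

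The call in S1pr1_KO against WT depended on the tool and on 1 library. DESeq2 called 1 of 86 members (Atp5h, adjusted p = 0.0495), beside 955 of all 30660 genes tested. With limma-voom and sample quality weights, 72 of 86 were called, all lower, beside 7828 of the 30660 genes. Without S1pr1_KO 3, edgeR called 9 members, all lower, among 1330 genes in all, with a median of -0.90. In C3_KO against WT, DESeq2, limma-voom and limma on log2(FPKM + 1) each called 0 members. Among the 30660 genes tested they called 82, 5 and 1.

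**Figure D1:**
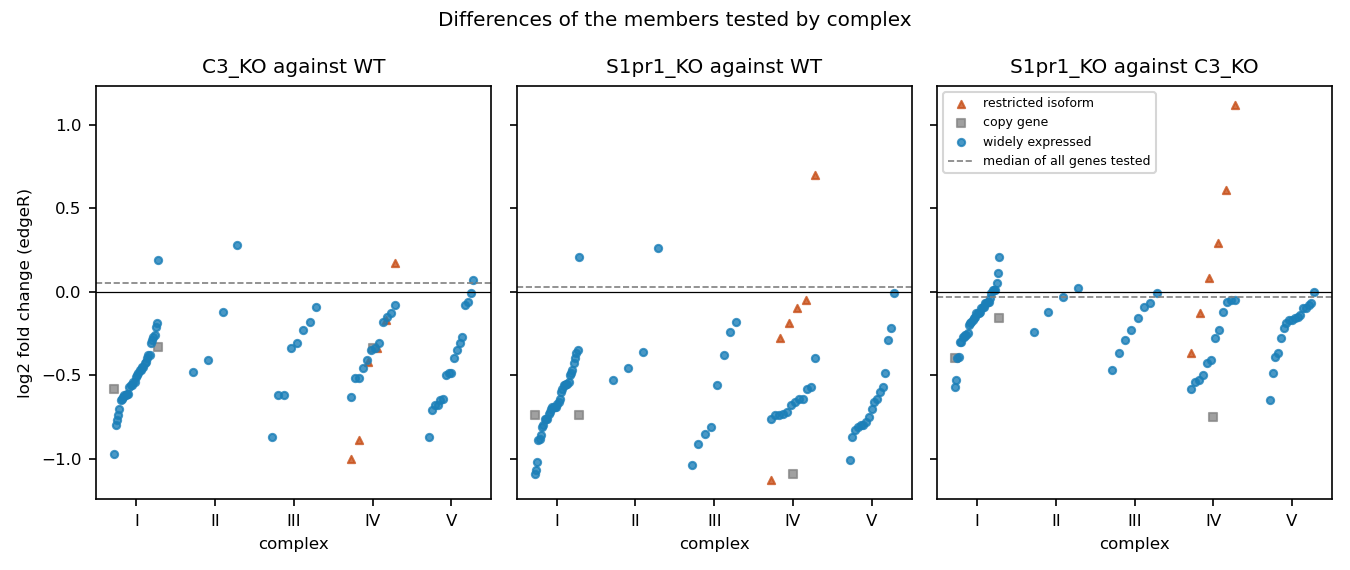
Log2 fold change of each member tested (vertical axis) by complex (horizontal axis) in the 3 comparisons, with circles for widely expressed subunits, triangles for restricted isoforms, squares for copy genes and a dashed line at the median of all genes tested. In both comparisons with WT nearly all circles lie below 0, with medians of -0.45 and -0.66 over all members, and Sdha and Ndufs1 lie above 0 in both.

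The libraries of a genotype did not share 1 level. The median deviation of the 77 widely expressed subunits from each gene's own mean over 12 libraries (log2 CPM) was 0.51, 0.04, 0.59 and 0.44 in WT 1 to WT 4. It was 0.06, 0.29, 0.00 and -0.65 in C3_KO 1 to C3_KO 4, and -0.17, -0.89, 0.35 and -0.61 in S1pr1_KO 1 to S1pr1_KO 4. So 3 of the 4 WT libraries were high, and WT 2 lay with C3_KO 1 and C3_KO 3. C3_KO 2 and S1pr1_KO 3 lay between these and the high WT libraries, and C3_KO 4, S1pr1_KO 2 and S1pr1_KO 4 were low. S1pr1_KO 2 was the lowest of the 12 libraries for 65 of the 77. For 62 of the 77, the 3 lowest libraries were C3_KO 4, S1pr1_KO 2 and S1pr1_KO 4, as they were for 9.85% of the 15384 genes tested with a mean log2 CPM of 1 or more.

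**Figure D2:**
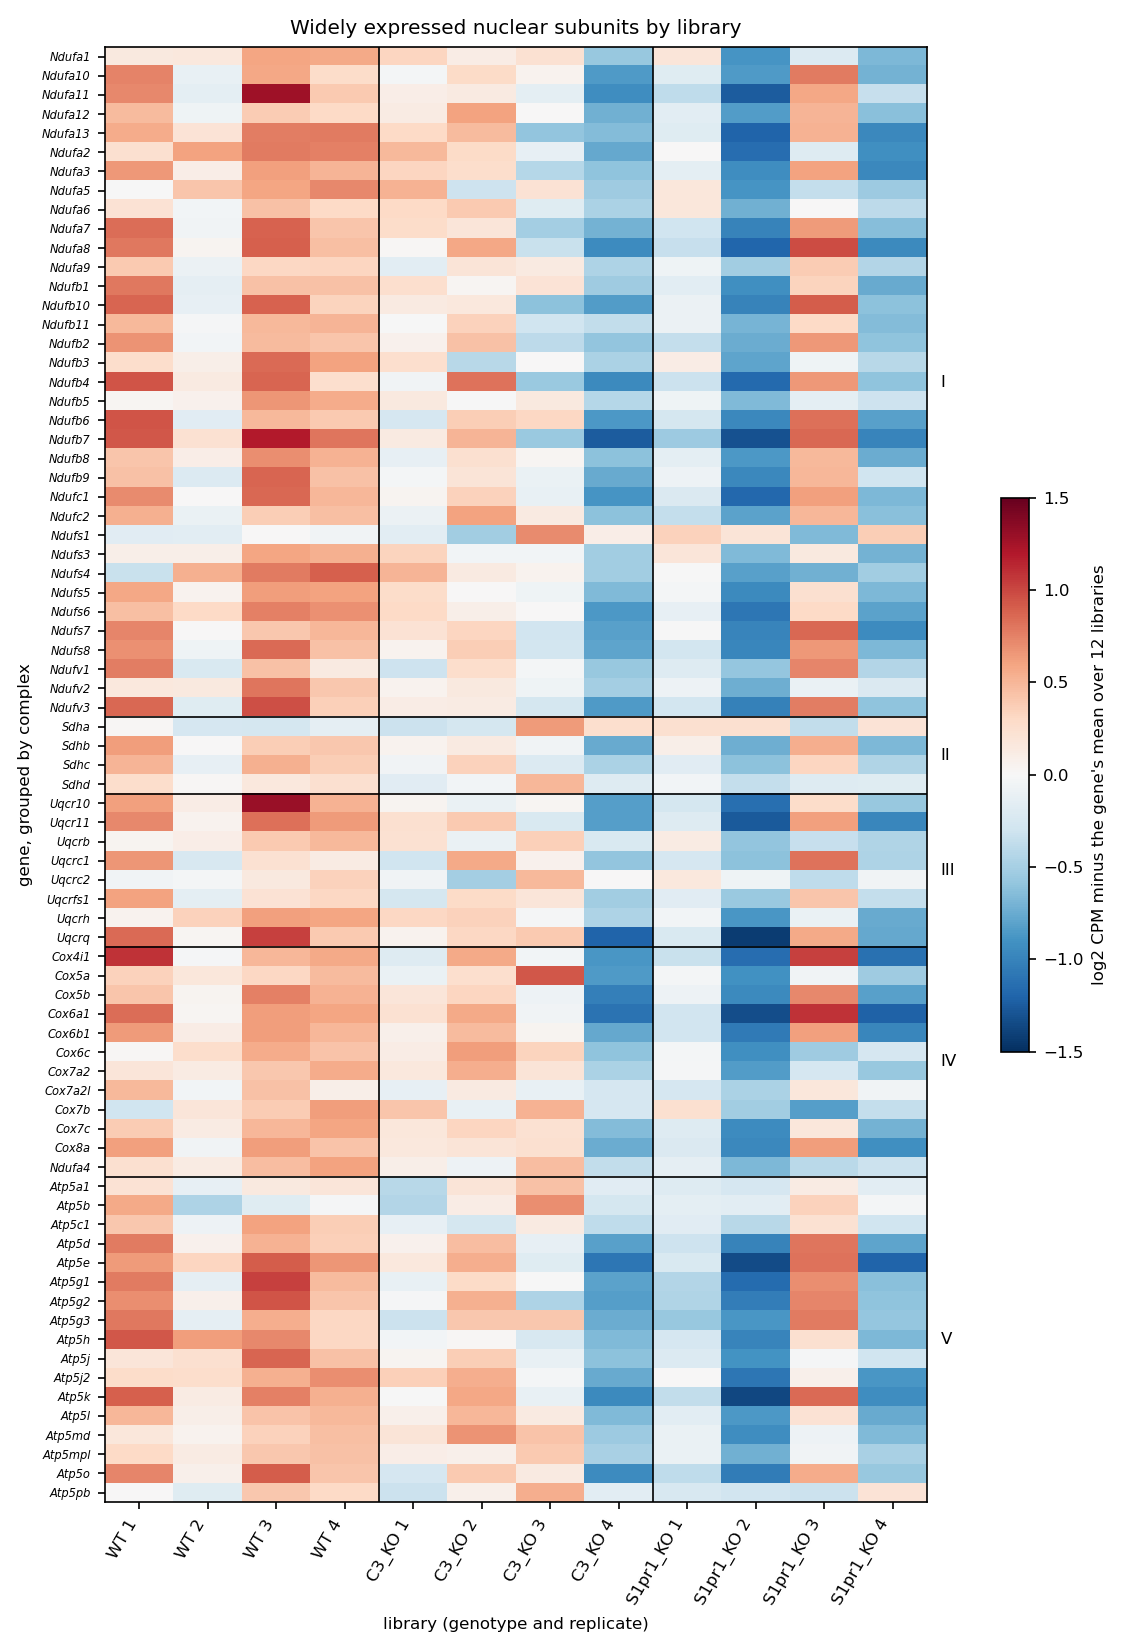
Log2 CPM of each of 76 of the 77 widely expressed subunits minus its mean over 12 libraries (colour, from blue for lower to red for higher), with genes grouped by complex in lines and libraries in columns. C3_KO 4, S1pr1_KO 2 and S1pr1_KO 4 are blue for nearly all genes, with median deviations of -0.65, -0.89 and -0.61, and Sdha, Ndufs1, Uqcrc2 and Atp5b break the pattern.

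These 3 low libraries, with S1pr1_KO 1, also had the 4 lowest total counts (230.4 to 284.1 M), and the 3 had the highest TMM factors (1.17 to 1.30, beside 0.87 to 1.07 elsewhere). Counting error was small beside the spread of the libraries, since the lowest count of any widely expressed subunit in a library was 4152, for Ndufc1. Leaving out the 4 libraries of lowest total moved the median of S1pr1_KO against WT to -0.01, beside -0.11 for all genes. It left 1 S1pr1_KO library (S1pr1_KO 3) and 44 of 87 members below 0. In C3_KO against WT the median moved to -0.28, beside 0.06 for all genes, with 3 C3_KO libraries left. The part of depth, RNA quality or library preparation in the differences was not tested.

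Levels of other cell types' markers are given beside these differences. The summed level of 8 leukocyte markers was 64.5 to 99.4 CPM in WT, 73.0 to 153 in C3_KO and 107 to 250 in S1pr1_KO, with none of the markers at 0 in any library. All 8 had a log2 fold change above 0 in S1pr1_KO against WT (median 1.62) and all 8 in C3_KO against WT (median 0.46), and 0 were called by edgeR. The 10 white adipocyte markers summed to 58.3 to 335 CPM in WT, 114 to 337 in C3_KO and 82.3 to 1240 in S1pr1_KO, with medians of 2.49 and 0.95 in the same comparisons. Of the 8 luminal markers, 7 were below 0 in S1pr1_KO against WT (median -0.44) and 5 in C3_KO against WT (median -0.03). The part of cell composition in the subunit differences was not tested. With C3_KO 3, S1pr1_KO 1 and S1pr1_KO 4 left out, the subunit medians were -0.45 in S1pr1_KO against WT and -0.45 in C3_KO against WT.

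Gene length also went with the differences, among the subunits and among other genes. The widely expressed subunits had a median deposited length of 1675 bases, from 419 for Ndufa1 to 8086 for Ndufs1, beside a median of 3972 bases for expressed genes. In S1pr1_KO against WT, other genes under 1000 bases had a median log2 fold change of -0.56, and other genes of 5000 bases or more had 0.11. The 17 subunits under 1000 bases had a median of -0.72 and the 3 of 5000 bases or more (Ndufs1 among them) had -0.55. At 1000 to under 2500 bases, which held 38 subunits, the subunit median was -0.66 beside -0.35 for other genes, and at 2500 to under 5000 bases, with 19 subunits, -0.64 beside -0.13. In C3_KO against WT the subunit medians from short to long were -0.52, -0.49, -0.38 and -0.31, beside -0.37, -0.22, -0.07 and 0.11. Other genes were also followed by library, as the median deviation from each gene's mean (log2 CPM). Under 1000 bases it was -0.42 in C3_KO 4, -0.65 in S1pr1_KO 2 and -0.46 in S1pr1_KO 4. At 5000 bases or more it was 0.12, 0.18 and 0.16 in these 3 libraries. S1pr1_KO 3 went the other way, at 0.26 and -0.17. Under 1000 bases WT 1 to WT 4 were at 0.48, 0.09, 0.47 and 0.40. Offsets were also fitted that set the median of all genes tested equal within each decile of length. With them the subunit medians were -0.58 in S1pr1_KO against WT and -0.42 in C3_KO against WT. The deciles held genes of low count too, so the offsets need not remove the trend among expressed genes given above. The part of length in the subunit differences was not tested.

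**Figure D3:**
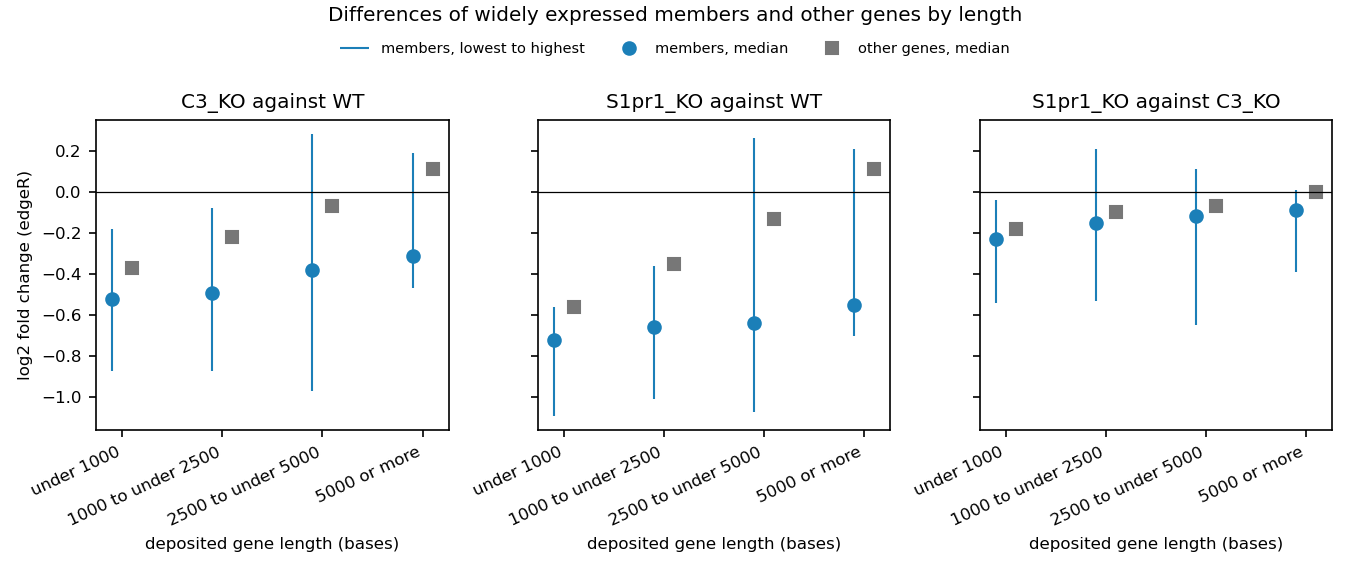
Median log2 fold change (vertical axis) of the widely expressed subunits (circles, with lines from the lowest to the highest member) and of other genes with a mean log2 CPM of 1 or more (squares), by deposited gene length in 4 ranges (horizontal axis) in the 3 comparisons. Other genes rise from -0.56 to 0.11 with length in S1pr1_KO against WT, while the subunit medians lie below them in every range, from -0.72 to -0.55.

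Complex I takes electrons from NADH, and its 7 nuclear core subunits carry the flavin, the iron-sulfur clusters and the quinone site. None passed the test, and their median was -0.49 in S1pr1_KO against WT and -0.45 in C3_KO against WT. The NADH-binding Ndufv1 was at 159, 80.1, 127 and 103 CPM in WT, at 75.7, 112, 91.9 and 63.3 in C3_KO, and at 82.0, 62.6, 156 and 68.9 in S1pr1_KO. S1pr1_KO 3 stood with the highest WT library, and the groups overlapped. Ndufv2, an iron-sulfur core subunit, was at 106, 105, 165 and 125 CPM in WT and at 90.1, 56.9, 88.1 and 81.4 in S1pr1_KO, without overlap (log2 fold change -0.66, unadjusted p = 0.0121). In C3_KO it was at 98.5, 105, 90.4 and 66.5 CPM (log2 fold change -0.47 ± 0.23 SE, edgeR adjusted p = 0.765).

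Ndufs1 did not follow the other core subunits. It was at 46.3, 46.6, 52.4 and 50.2 CPM in WT, at 46.5, 36.3, 84.8 and 55.6 in C3_KO, and at 65.9, 59.7, 32.9 and 67.1 in S1pr1_KO. The WT libraries lay close together, and S1pr1_KO 3, which was high for most subunits, was the lowest of the 12. Its log2 fold change was 0.21 ± 0.27 SE in S1pr1_KO against WT and 0.19 ± 0.27 in C3_KO against WT (edgeR adjusted p = 0.742 and 0.872), and with the length offset the first was -0.01. Ndufs1 is the longest widely expressed member, and in the annotation of the older build its exons overlap those of Eef1b2 and Ino80dos on the opposite strand.

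The 29 accessory subunits of complex I among the members surround the core and are needed to build and hold it. All 29 were below 0 in both comparisons with WT, with medians of -0.69 in S1pr1_KO and -0.54 in C3_KO. Of them 14 and 1 had an unadjusted p under 0.05, beside 7.78% and 2.61% of all genes lower, so the 1 in C3_KO was near that share. Ndufa2, a small accessory subunit with a thioredoxin-like fold, was at 69.3, 88.9, 100 and 98.9 CPM in WT, at 81.7, 71.4, 53.5 and 34.3 in C3_KO, and at 58.5, 26.5, 51.2 and 30.9 in S1pr1_KO. All 4 S1pr1_KO libraries lay below all WT libraries (log2 fold change -1.09 ± 0.31 SE, edgeR adjusted p = 0.217). Ndufs4, whose loss causes a Leigh-like encephalopathy in mice, was at 45.4, 83.2, 98.3 and 107 CPM in WT and at 57.0, 32.7, 34.8 and 39.9 in S1pr1_KO. The groups overlapped because WT 1 was low, and the log2 fold change was -1.02 ± 0.30 SE (edgeR adjusted p = 0.222).

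In C3_KO against WT, the accessory subunits of smallest p were Ndufb3 and Ndufa11, both of the membrane arm. Ndufb3 was at 54.7, 48.6, 82.3 and 69.1 CPM in WT and at 54.5, 34.3, 45.7 and 32.8 in C3_KO (log2 fold change -0.61 ± 0.25 SE, edgeR adjusted p = 0.765). Ndufa11, shown above for its NRF1 string, was at 99.2, 54.4, 146 and 79.4 CPM in WT and at 64.6, 66.3, 54.6 and 31.6 in C3_KO (-0.80 ± 0.39 SE, edgeR adjusted p = 0.765). In both the groups overlapped through WT 2. The lowest log2 fold change of complex I in C3_KO was that of Ndufb7, another membrane arm subunit, at -0.97 ± 0.47 SE (edgeR adjusted p = 0.765). Its libraries ran from 118 to 231 CPM in WT and from 42.4 to 144 in C3_KO, and 183 CPM in S1pr1_KO 3 stood apart from 40.7 to 69.2 in the rest of S1pr1_KO.

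Complex II oxidises succinate and is wholly nuclear. Its flavoprotein Sdha, which binds succinate, went opposite to most subunits, at 143, 119, 118 and 129 CPM in WT, 113, 118, 221 and 169 in C3_KO, and 168, 168, 110 and 163 in S1pr1_KO. Of the S1pr1_KO libraries, 3 lay above all WT libraries and S1pr1_KO 3 lay below them. The log2 fold change was 0.26 ± 0.24 SE in S1pr1_KO and 0.28 ± 0.24 in C3_KO (edgeR adjusted p = 0.623 and 0.790).

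The partners of Sdha had values below 0 against WT. The iron-sulfur subunit Sdhb was at 140, 91.4, 117 and 120 CPM in WT and at 94.1, 99.8, 87.3 and 53.8 in C3_KO (-0.48 ± 0.30 SE, edgeR adjusted p = 0.765). The anchor Sdhc was at 148, 95.4, 150 and 134 CPM in WT and at 91.9, 67.4, 130 and 75.6 in S1pr1_KO (-0.53 ± 0.26 SE, edgeR adjusted p = 0.341). The second anchor Sdhd was at 79.2, 66.5, 73.2 and 77.6 CPM in WT and at 64.1, 51.3, 57.4 and 58.2 in S1pr1_KO. All S1pr1_KO libraries of Sdhd lay below all WT libraries, and it was the 1 member of complex II whose groups did not overlap.

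Complex III passes electrons from ubiquinol to cytochrome c. All 8 members were below 0 against WT in both knockouts, with medians of -0.68 in S1pr1_KO and -0.33 in C3_KO. Of them 4 and 1 had an unadjusted p under 0.05, beside 7.78% and 2.61% of all genes lower. Uqcr10, a small subunit of the membrane part, was at 120, 84.6, 193 and 113 CPM in WT, 80.6, 73.3, 80.2 and 44.4 in C3_KO, and 65.1, 35.8, 94.7 and 52.9 in S1pr1_KO. C3_KO lay below WT without overlap (-0.87 ± 0.33 SE, edgeR adjusted p = 0.765), while S1pr1_KO 3 overlapped WT 2 (-1.04 ± 0.33 SE, edgeR adjusted p = 0.235). Uqcrh, the hinge protein that holds cytochrome c1, was at 130, 159, 191 and 188 CPM in WT and at 122, 68.1, 117 and 74.1 in S1pr1_KO. These groups did not overlap (-0.81 ± 0.26 SE, edgeR adjusted p = 0.236).

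The core proteins of complex III went different ways across libraries. Uqcrc1 was at 284, 152, 210 and 196 CPM in WT and at 150, 117, 316 and 130 in S1pr1_KO, where S1pr1_KO 3 was the highest of the 12 libraries. Uqcrc2 was at 103, 104, 118 and 135 CPM in WT and at 119, 102, 81.9 and 103 in S1pr1_KO, where S1pr1_KO 3 was the lowest of the group. Its log2 fold change was the one closest to 0 in the complex, at -0.18 ± 0.22 SE in S1pr1_KO and -0.09 ± 0.22 in C3_KO (edgeR adjusted p = 0.720 and 0.934). The second of these turned positive without the TMM factors (0.05), and in the annotation of the older build Uqcrc2 overlaps another gene. The Rieske protein Uqcrfs1 ran from 69.6 to 117 CPM in WT, 53.6 to 94.1 in C3_KO and 52.5 to 103 in S1pr1_KO.

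Complex IV reduces oxygen. Its 12 widely expressed nuclear subunits stabilise and tune a catalytic core made by mitochondrial DNA. All 12 were below 0 against WT in both knockouts, with medians of -0.67 in S1pr1_KO and -0.34 in C3_KO. Ndufa4, named as a complex I protein but now placed in complex IV, was at 147, 135, 172 and 189 CPM in WT, 132, 118, 172 and 96.0 in C3_KO, and 113, 78.0, 93.8 and 99.7 in S1pr1_KO. S1pr1_KO lay below WT without overlap (-0.74 ± 0.22 SE, edgeR adjusted p = 0.223). Cox6a1, the most abundant member by FPKM, was at 338, 194, 294 and 286 CPM in WT and at 156, 75.7, 402 and 81.9 in S1pr1_KO, with S1pr1_KO 3 above all WT libraries. Cox4i1, which binds the ATP that restrains the enzyme, was at 296, 169, 757 and 172 CPM in S1pr1_KO and at 790, 367, 526 and 552 in WT. S1pr1_KO 3 again stood far above the rest of its group.

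Of the widely expressed subunits of complex IV, Cox7b followed the other subunits least. It was at 63.0, 88.3, 101 and 120 CPM in WT, 104, 72.0, 112 and 65.3 in C3_KO, and 91.5, 54.2, 43.9 and 60.5 in S1pr1_KO. S1pr1_KO 3 was again the lowest of the 12 and WT 1 was low. The log2 fold change in C3_KO was -0.08 ± 0.28 SE (edgeR adjusted p = 0.951), and it was 0.03 without the TMM factors. Cox5a, which binds the catalytic core on the matrix side, was at 67.8 to 83.6 CPM in WT and at 32.2 to 59.1 in S1pr1_KO without overlap, while C3_KO ran from 33.6 to 115.

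ATP synthase has a catalytic F1 head, a membrane Fo part and stalks that join them. All 17 members were below 0 in S1pr1_KO against WT and 16 in C3_KO, and the medians were -0.49 and -0.49 for the 5 F1 members and -0.76 and -0.45 for the 12 of Fo and the stalks. Atp5h, the d subunit of the peripheral stalk, had the smallest p of all members in both comparisons with WT. It was at 309, 251, 268 and 201 CPM in WT, 158, 165, 137 and 103 in C3_KO, and 136, 81.9, 192 and 102 in S1pr1_KO. Every knockout library lay below every WT library, although 192 CPM in S1pr1_KO 3 was close to 201 in WT 4. The log2 fold change was -1.01 ± 0.28 SE in S1pr1_KO and -0.87 ± 0.28 in C3_KO (edgeR adjusted p = 0.215 and 0.765).

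The F1 chains differed among themselves. The gamma chain Atp5c1, the rotor shaft, was at 221, 159, 254 and 216 CPM in WT, 153, 139, 184 and 128 in C3_KO, and 149, 125, 196 and 136 in S1pr1_KO. In C3_KO its log2 fold change was -0.49 ± 0.22 SE (edgeR adjusted p = 0.765), and it overlapped WT through WT 2. The catalytic beta chain Atp5b was at 937, 459, 557 and 622 CPM in WT, 464, 682, 1020 and 525 in C3_KO, and 569, 565, 803 and 617 in S1pr1_KO. Its log2 fold change was -0.01 ± 0.31 SE in S1pr1_KO and 0.07 ± 0.31 in C3_KO (edgeR adjusted p = 0.989 and 0.965), with a sign that changed with the scaling (0.17 in S1pr1_KO without the TMM factors). The alpha chain Atp5a1 ran from 524 to 664 CPM in WT, 429 to 773 in C3_KO and 478 to 623 in S1pr1_KO.

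Between the knockouts the median difference was closer to 0. In S1pr1_KO against C3_KO, 74 of 86 members were below 0, beside 53.8% of all genes, with a median of -0.16 and -0.03 for all genes. That median moved with single libraries. It was -0.01 without S1pr1_KO 2 (44 of 86 below 0), -0.04 without C3_KO 2 (50 of 86) and -0.06 without S1pr1_KO 4 (54 of 86). It was -0.31 without C3_KO 4 and -0.47 without S1pr1_KO 3, each with 80 of 86 below 0. Without the 4 libraries of lowest total it was 0.31, beside -0.19 for all genes, with 29 of 87 below 0. At an unadjusted p under 0.05, 2 were lower, beside 1.63% of all genes lower, and 0 were higher, beside 1.77%. No member was lower without overlap (0 of 86), beside 0.838% of all genes. Those 2 were Atp5md, a small Fo subunit that links ATP synthase dimers, and Cox7a2, the widely expressed partner of Cox7a1. Atp5md was at 69.2, 96.1, 81.0 and 41.2 CPM in C3_KO and at 56.2, 31.5, 57.4 and 38.1 in S1pr1_KO (-0.65 ± 0.27 SE, edgeR adjusted p = 1.00). Cox7a2 was at 77.2, 101, 79.0 and 49.8 CPM in C3_KO and at 68.4, 38.8, 58.0 and 46.9 in S1pr1_KO (-0.54 ± 0.24 SE, edgeR adjusted p = 1.00). The groups of both overlapped through C3_KO 4. Next by p were Cox6c (-0.58), Ndufa4 (-0.43), Ndufs4 (-0.57) and Uqcrh (-0.47). The highest log2 fold change of complex I was 0.21 ± 0.40 SE for Ndufb10, a membrane arm subunit.

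**Figure D4:**
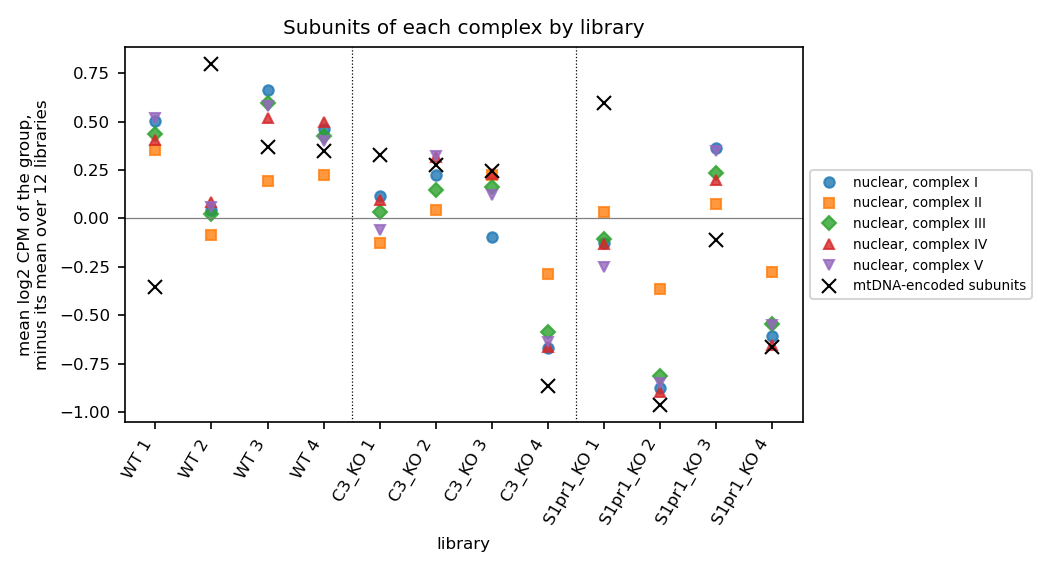
Mean log2 CPM of the widely expressed subunits of each complex and of the 13 subunits encoded by mitochondrial DNA (crosses), each minus its mean over 12 libraries (vertical axis), by library (horizontal axis). Complexes I, III, IV and V move together across libraries, complex II moves less, and the crosses are low in C3_KO 4, S1pr1_KO 2 and S1pr1_KO 4 and leave the nuclear subunits in WT 1, WT 2 and S1pr1_KO 1.

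Across libraries the subunits moved largely as a block. The SD of log2 CPM over the 12 libraries had a median of 0.52 for the 77 widely expressed subunits. After the median deviation of the 77 in each library was subtracted, it was 0.25, and 67 of the 77 had a smaller SD than before. The same subtraction raised the median SD of the 15384 genes with a mean log2 CPM of 1 or more from 0.45 to 0.60. Members are part of the median subtracted, so this is a description. Closest to the block were Ndufb8 (remaining SD 0.10), Atp5l (0.11) and Cox7c (0.12), one each from complexes I, V and IV. Furthest among the widely expressed subunits were Ndufs1 (0.75), Sdha (0.72), Uqcrc2 (0.56), Cox7b (0.54), Atp5b (0.51) and Ndufs4 (0.49).

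The 13 subunits encoded by mitochondrial DNA summed to 26200 CPM in C3_KO 4, 23600 in S1pr1_KO 2 and 29300 in S1pr1_KO 4, and to 49800 to 82500 in the other 9 libraries. The same 3 libraries were thus lowest for both genomes. The mean log2 CPM of the mitochondrial genes exceeded that of the nuclear subunits by 3.97 in WT 1 and by 5.56 in WT 2, the lowest and the highest of the 12. Their median log2 fold change was -0.55 in S1pr1_KO and -0.31 in C3_KO, with 11 and 12 of 13 below 0 and 0 called by edgeR. Counts of mitochondrial genes can include reads of nuclear copies, which were not separated here.

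Other mitochondrial gene groups were compared from lists chosen with earlier results known, and 0 of their genes were called by edgeR in either comparison with WT. Of 78 mitochondrial ribosomal protein genes, 78 were below 0 in S1pr1_KO (median -0.65) and 77 in C3_KO (median -0.48), with 43 and 14 at an unadjusted p under 0.05. Of 50 assembly factors, which build the complexes without staying in them, 45 were below 0 in each knockout, with medians of -0.44 and -0.34. Of these factors 17 and 8 had an unadjusted p under 0.05. Over all genes, 7.78% in S1pr1_KO and 2.61% in C3_KO were lower at that p. The 17 electron carriers tested had medians of -0.22 and -0.15. The 13 citrate cycle enzymes had a median of -0.02 in S1pr1_KO with 9 below 0, and 7 of 13 were below 0 in C3_KO. The 16 regulators of mitochondrial biogenesis had medians of -0.07 and 0.03, close to those of all genes. Differences between these lists were not tested.

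The restricted isoforms replace a widely expressed subunit in particular tissues, and 6 of the 8 were tested. None differed between genotypes beyond the spread of the libraries, and single libraries carried most of their range. Cox6a2, the heart and skeletal muscle partner of Cox6a1, was at 0.268, 12.6, 0.423 and 0.337 CPM in WT, 0.228, 5.11, 0.409 and 1.10 in C3_KO, and 5.70, 0.135, 0.0995 and 0.331 in S1pr1_KO. WT 2, C3_KO 2 and S1pr1_KO 1 were high, 1 library of each genotype. The skeletal muscle actin Acta1 was at 750, 504 and 374 CPM in these 3 libraries and at 0.413 to 97.7 in the rest, and the muscle creatine kinase Ckm at 380, 221 and 161 beside 0.650 to 40.6. Cox6a2 made up 6.29, 1.84 and 3.65% of the summed FPKM of the pair with Cox6a1 in them. All 10 skeletal muscle markers were detected in every library, at a summed 13.2 to 3940 CPM in WT, 12.8 to 2140 in C3_KO and 5.17 to 2340 in S1pr1_KO. The log2 fold change of Cox6a2 was -1.13 ± 1.57 SE in S1pr1_KO against WT (edgeR adjusted p = 0.755) and 2.19 without WT 2. In C3_KO its level was 0.500-fold that of WT (edgeR adjusted p = 0.883), and the log2 fold change was 2.32 without WT 2.

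Cox7a1 and Cox8b, which in mice replace Cox7a2 and Cox8a in heart, skeletal muscle and brown fat, were highest in S1pr1_KO 1. Cox7a1 was at 4.21, 5.28, 9.86 and 7.08 CPM in WT, 4.58, 5.12, 1.46 and 3.06 in C3_KO, and 12.3, 2.04, 4.29 and 3.12 in S1pr1_KO. Its share of the summed FPKM of the pair with Cox7a2 was 24.1% in S1pr1_KO 1, 16.0% in WT 3 and 3.16% in C3_KO 3, with a median of 10.1% over the 12 libraries. Cox8b was at 3.48, 4.68, 1.35 and 3.34 CPM in WT, 2.38, 5.49, 0.222 and 1.53 in C3_KO, and 15.1, 2.18, 2.77 and 0.862 in S1pr1_KO. Its share of the pair with Cox8a was 17.9% in S1pr1_KO 1 and 0.231 to 5.64% elsewhere. C3_KO 3 was the lowest library for both isoforms.

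The brown fat uncoupling protein Ucp1 was at 48.3 CPM in S1pr1_KO 1 and at 0.0159 to 1.16 in the other 11 libraries. The 10 brown fat markers summed to 132 CPM in that library, to 9.08 to 33.6 in the others, and at most 1 of them was at 0 in a library. Most of the 10 were highest in S1pr1_KO 1, while Prdm16 was at 2.42 CPM there in a range of 1.10 to 15.5. Elovl3 was highest in C3_KO 3 (1.17 CPM, beside 0.928 in S1pr1_KO 1). Ucp1 was lowest in WT 3 (0.0159 CPM), where Cox7a1 was second highest. White adipocyte markers (1240 CPM summed) and muscle markers (2340 CPM summed) were high in S1pr1_KO 1 too. The part of these cells in the isoform levels was not tested. Cox8b had a log2 fold change of 0.70 ± 0.89 SE in S1pr1_KO against WT (edgeR adjusted p = 0.726) and of 1.12 ± 0.89 against C3_KO (edgeR adjusted p = 1.00), and without S1pr1_KO 1 these were -0.67 and -0.27. Cox7a1 was at -0.28 ± 0.54 SE in S1pr1_KO and -0.89 ± 0.54 in C3_KO against WT (edgeR adjusted p = 0.827 and 0.765).

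**Figure D5:**
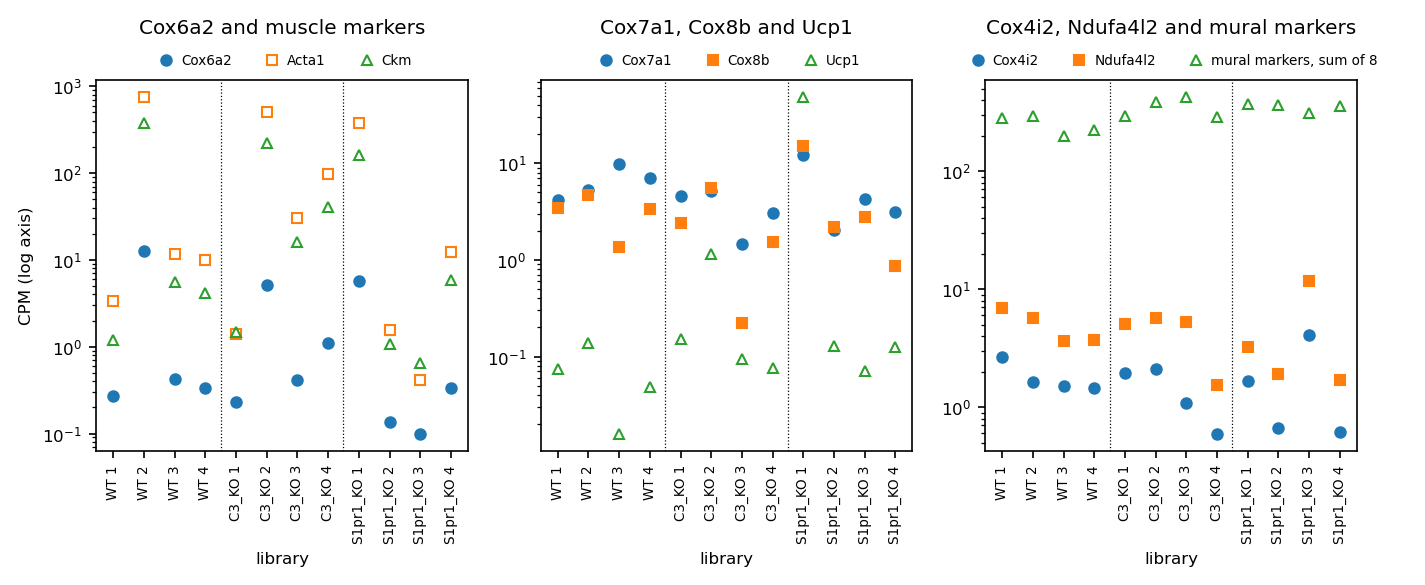
CPM on a log axis (vertical) by library (horizontal) of restricted isoforms (filled symbols) with markers of cells known to express them (open symbols). Cox6a2 is high in the 3 libraries where Acta1 and Ckm are high, Cox7a1 and Cox8b are highest in S1pr1_KO 1, where Ucp1 is at 48.3 CPM, and Cox4i2 and Ndufa4l2 are highest in S1pr1_KO 3, where the 8 mural cell markers sum to 313 CPM in a range of 198 to 424.

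Cox4i2, the lung and hypoxia isoform of Cox4i1, and Ndufa4l2, a hypoxia-induced relative of Ndufa4, shared their highest libraries. Cox4i2 was at 2.68, 1.65, 1.51 and 1.44 CPM in WT, 1.96, 2.10, 1.09 and 0.596 in C3_KO, and 1.67, 0.668, 4.06 and 0.613 in S1pr1_KO. Ndufa4l2 was at 6.91, 5.68, 3.66 and 3.68 CPM in WT, 5.09, 5.74, 5.27 and 1.55 in C3_KO, and 3.22, 1.90, 11.8 and 1.71 in S1pr1_KO. S1pr1_KO 3 and WT 1 were highest for both, and C3_KO 4, S1pr1_KO 2 and S1pr1_KO 4 were lowest for both, the libraries that were low for the widely expressed subunits. Both genes are known from mural cells. The 8 mural markers, none at 0 in any library, summed to 313 CPM in S1pr1_KO 3 and 283 in WT 1, within their range of 198 to 424 over the 12 libraries. Single mural markers differed in these libraries. Cspg4 was highest of the 12 in S1pr1_KO 3 (26.3 CPM) and Kcnj8 was at 12.6 there, second to 26.8 in C3_KO 3, while Rgs5 was at 32.7 in a range of 23.0 to 135. The part of mural cells in the isoform levels was not tested. Ndufa4l2 made up 13.7% of the summed FPKM of the pair with Ndufa4 in S1pr1_KO 3 and 1.99 to 5.77% elsewhere, while Cox4i2 made up 0.511 to 1.17% of its pair.

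Of the isoforms known from testis, Cox6b2 was at 0.529 to 1.74 CPM over the 12 libraries, 0.160 to 0.533% of the summed FPKM of the pair with Cox6b1. Cox7b2 had 18 counts in all 12 libraries together and 0 in 8 of them, and Cox8c had 13 counts and 0 in 10. A count of 0 allows up to 3 counts in a library, as counting error only. Cox7a2l, a relative of Cox7a2 that joins complexes III and IV into supercomplexes, was at 117 to 169 CPM in WT, 101 to 133 in C3_KO and 86.7 to 136 in S1pr1_KO, with overlap.

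The copy genes took part of what may be their parents' reads. Ndufb4c had 25.7 to 31.7% of the count of Ndufb4, Ndufs6b 2.79 to 3.92% of that of Ndufs6 and Cox6c2 0.353 to 0.754% of that of Cox6c. Among pseudogenes outside the members, Ndufa12-ps had 19.1 to 38.2% of the count of Ndufa12, Ndufs5-ps 9.57 to 14.6% of that of Ndufs5 and Cox5b-ps 6.69 to 9.38% of that of Cox5b. How reads that fit several places were counted is not given in the sources used here, so the levels of these parents and copies are uncertain. In the GENCODE M21 annotation, of the older build, an exon of 28 of the 86 members found there overlaps another gene, 26 of them widely expressed, among them Ndufa2, Ndufa11, Cox4i1, Cox5a, Cox6c, Atp5a1, Cox6a2 and Ndufa4l2. The strand handling of the counts is not given either, so their levels may include reads of the neighbour.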

How the data were processed

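Total RNA of 12 primary tumours was sequenced, 4 libraries a genotype, and groups came from the genotype label. Replicate numbers were given in accession order and only name a library. Whether each tumour had its own mouse is not stated, so p-values measure the spread between these samples, which may be technical.

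The authors deposited raw counts per gene for 56860 genes, and a table of FPKM values. Of 682320 deposited FPKM values, 682317 equalled the count scaled by the deposited gene length and the library total (relative tolerance 0.0001). Per the submitters' processing notes, StringTie and the build GRCm39 (mm39) were named, without version or role; the aligner and counting program are not given in the sources used. Even numbers made up 60.2 to 64.4% of the counts from 1 to 50, so both mates of a read pair may have been counted.

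Counts were tested with edgeR 4.0.16 in R 4.3.3: a quasi-likelihood F-test with robust spread on all 12 libraries, TMM scaling, edgeR's filter on low counts (30660 genes tested) and Benjamini-Hochberg adjustment over all of them, with a call at an adjusted p under 0.05. The fit left 9 residual degrees of freedom, and the common biological coefficient of variation was 0.564. Log2 CPM values had a prior count of 2. Standard errors were derived from each F statistic and fold change. The steps were tested on simulated data. DESeq2 1.42.0, limma 3.58.1 and other scalings, filters and sets of libraries were alternatives, 25 in all.

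Members named were the restricted isoforms and their counterparts, the catalytic core, the 6 members of smallest p in each comparison, the highest and lowest log2 fold change of each complex among members with a mean log2 CPM of 1 or more, and the 5 of highest and of lowest FPKM. Others are named after their values were seen: Ndufa1, Ndufb8, Ndufb9, Cox7c, Ndufc1, Atp5l, the parents of copy genes and the members named for their promoter. The same holds for the mural markers Cspg4, Kcnj8 and Rgs5, the muscle markers Acta1 and Ckm, and the brown fat markers Ucp1, Prdm16 and Elovl3. The values of 1 member of the catalytic core are not reported here. The members, lists and alternatives were chosen with earlier results of these data known. Promoters were RefSeq windows of the GRCm38.p6 build, searched for letter strings on both strands. They were used for sequence only, since no genome of the authors' build was used here.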

Additional observations from a re-analysis of the deposited data

Results flagged for a closer look

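In 15 of the 135 groups of 4 libraries examined, 1 library stood apart from the other 3 by more than Dixon's 95% critical value for 4 samples allows. Chance does this in about 1 in 20 groups of independent, normally spread values. These genes moved together across libraries and some were near 0 counts, so that rate is a rough guide only. Of the muscle, fat and hypoxia isoforms, Cox6a2 stood apart at 12.6 CPM in WT 2 and at 5.70 CPM in S1pr1_KO 1, Cox8b at 15.1 CPM in S1pr1_KO 1, Cox4i2 at 2.68 CPM in WT 1, and Ndufa4l2 at 11.8 CPM in S1pr1_KO 3 and, on the low side, at 1.55 CPM in C3_KO 4. Of the widely expressed subunits, Cox8a was low at 83.0 CPM in C3_KO 4, Sdha low at 110 CPM in S1pr1_KO 3 and Uqcrc1 high at 316 CPM in S1pr1_KO 3, so that Sdha and Uqcrc1 left their group in the same library in opposite directions. The rest were genes of a few counts, set apart by being above or furthest from 0 in 1 library: Cox7b2 (0.0244 CPM in WT 4), Cox8c (0.0291 CPM in WT 3 and 0.00634 CPM in C3_KO 3), Ndufa11b (0.00663 CPM in C3_KO 1 and 0.0297 CPM in S1pr1_KO 4) and Ndufb11b (0.00408 CPM in WT 2).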

How the results depend on the processing

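No paired analysis was possible because the labels and columns carry no replicate numbers shared between genotypes. In both comparisons with WT the median of the members kept its sign in all 25 alternatives. In S1pr1_KO against WT that sign rested on -0.01 in 1 alternative, given below. In C3_KO against WT and in S1pr1_KO against C3_KO, 0 members were called in any alternative. Among all genes, the most called there were 82 and 114, both with DESeq2. In S1pr1_KO against WT the number called was 1 with DESeq2, 72 with limma-voom and 0 to 9 when each library was left out in turn, beside 0 in edgeR. Among all genes, the same settings called 955, 7828 and 0 to 1330. The cause was not tested. Without the 4 libraries of lowest total the median was -0.01 in S1pr1_KO against WT, beside -0.11 for all genes. It was 0.31 in S1pr1_KO against C3_KO, beside -0.19 for all genes. Both values rest on a lone S1pr1_KO library that is assumed to vary like the others. Leaving out each library gave medians of -0.58 to -0.29 in C3_KO against WT, -0.90 to -0.51 in S1pr1_KO against WT and -0.47 to -0.01 in S1pr1_KO against C3_KO. Medians moved with 1 library: -0.29 in C3_KO against WT without C3_KO 4, and in S1pr1_KO against C3_KO -0.01 without S1pr1_KO 2, -0.06 without S1pr1_KO 4, -0.04 without C3_KO 2, -0.31 without C3_KO 4 and -0.47 without S1pr1_KO 3. Without the milk and salivary libraries it was -0.01 there. With limma-voom the medians were -1.04 in S1pr1_KO against WT, -0.60 in C3_KO against WT and -0.42 between the knockouts. Library totals alone moved the median of all genes to 0.19 in C3_KO against WT and 0.20 in S1pr1_KO against WT.

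Single members changed sign where their log2 fold change was near 0 or rested on 1 library, and none of these was called. In C3_KO against WT, Uqcrc2 was at 0.05 with library totals, 0.01 in FPKM and -0.28 to 0.05 with a library left out. Cox7b was at 0.03 with library totals, 0.05 in FPKM, 0.05 without the lowest totals and -0.23 to 0.09 with a library left out. Atp5b was at -0.03 in limma-voom, -0.18 without the milk and salivary libraries and -0.21 to 0.30 with a library left out. Ndufs1 was at -0.05 without the milk and salivary libraries and -0.08 (without C3_KO 3) to 0.35 with a library left out, and Cox6a2 at 0.21 in limma-voom and -2.57 to 2.32 (without WT 2) with a library left out. In S1pr1_KO against WT, Atp5b was at 0.02 with DESeq2 and with its size factors, 0.17 with library totals, 0.11 with upper quartiles, 0.03 with milk, salivary and mitochondrial genes left out of the scaling, 0.01 with length offsets, 0.03 with no filter, 0.07 with the CPM filter, 0.19 in FPKM, 0.15 without the milk and salivary libraries, 0.37 without the lowest totals and -0.15 to 0.22 with a library left out. Uqcrc2 was at 0.01 with library totals. Ndufs1 was at -0.01 with length offsets, -0.02 without the milk and salivary libraries and -0.52 without the lowest totals. Cox8b was at -0.16 in limma-voom, -0.32 without the milk and salivary libraries, -0.16 without the lowest totals and -0.67 (without S1pr1_KO 1) to 1.05 with a library left out. Without the lowest totals Sdhc was at 0.03 and Sdha at -0.16, and Cox6a2 was at -4.12 (without S1pr1_KO 1) to 2.19 (without WT 2) with a library left out.

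In S1pr1_KO against C3_KO, Uqcrc1 was at 0.03 with DESeq2, its size factors, length offsets or only these genotypes, 0.02 with library totals and no filter, 0.04 with upper quartiles and the reduced scaling, 0.00 with the CPM filter, 0.33 without the milk and salivary libraries, 0.71 without the lowest totals and -0.42 to 0.24 with a library left out. In limma-voom Ndufb10 was at -0.25, Sdhb at -0.24 and Atp5c1 at -0.10, and Sdhb was at 0.00 in FPKM. Cox8b was at -0.30 without the milk and salivary libraries and -0.27 (without S1pr1_KO 1) to 1.92 with a library left out. With a library left out, Ndufb10 was at -0.28 to 0.43, Sdhb at -0.26 to 0.18 and Atp5c1 at -0.13 to 0.11.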
